A study of Mus musculus with 12 samples.

Results

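The comparison covered mouse splenic B cells just before their first division and the B cells that had expanded by day 4 without becoming plasmablasts. It used 4 of the 12 RNA-Seq libraries of the series, chosen by their labels: B33-I and B33-II, taken 33 h after activation, and Ab-I and Ab-II, taken on day 4. All 4 came from male C57BL/6 mice (on a Pep3b background, 6 to 12 weeks old) that carried no transgene named in the labels. Naive B cells were isolated by negative selection and cultured with 25 μg/ml lipopolysaccharide (LPS) from Salmonella typhosa. Cells for the 33 h libraries were first labelled with the division dye CellTrace Violet. They were sorted as TCRβ- and CD69+ B cells with the highest dye signal, so they were activated but undivided. The expanded cells were sorted as CD22+ CD138- from cultures seeded at a lower density, for which the methods name no dye. Time after activation, number of divisions, seeding density and sorting gate therefore changed together and cannot be told apart. The other 8 libraries (naive cells, 3 h, 10 h and day 4 plasmablasts) entered the fit to estimate the spread, and their levels are given only for orientation.

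LPS binds Toll-like receptor 4 on B cells and drives them through several rapid divisions. Some daughters become plasmablasts, which carry CD138, rebuild their endoplasmic reticulum (ER) and secrete antibody, while others go on dividing as activated B cells. During this phase the antibody heavy chain locus can be rearranged from IgM and IgD to IgG classes by class switch recombination, and in mice LPS alone is known to favour IgG3 and IgG2b.

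Libraries of 33 h cells held 60585587 and 36194490 counts in replicates 1 and 2, and those of expanded B cells 41861977 and 35158294. Over genes tested, the log2 ratio of replicates had a standard deviation (SD) of 0.377 at 33 h and 0.303 in expanded cells. Markers of B cells were abundant throughout: Cd79a, a chain of the B cell receptor, stood at 767 and 627 RPKM (counts scaled to gene length and library total) at 33 h and at 1069 and 1099 RPKM in expanded cells, and Ms4a1, the gene of CD20, at 704 and 574 RPKM and at 495 and 426 RPKM. Of 6 plasmablast markers, 3 were called up (Prdm1, Xbp1 and Jchain, given below), and the median log2 fold change was 2.05. Irf4 was not called. Tnfrsf17 had 0 counts at 33 h and at most 2 in an expanded library. Sdc1 stood at 2.19 and 2.58 RPKM at 33 h against 1.27 and 1.71 RPKM in expanded cells (log2 fold change -0.68, not called). It is the gene of CD138, against which the expanded cells were gated. T cell markers summed to 23.3 to 28.1 CPM (counts scaled to the library total) at 33 h and 37.7 to 43.1 CPM in expanded cells, mostly Lck, with Cd3e at no more than 1 count and Trbc1 at 0 in all 4 libraries. Myeloid markers summed to 22.5 to 31.4 CPM and 44.3 to 45.3 CPM, mostly Itgam and Adgre1, and Lyz2, Mpo and S100a8 were at 0. Of 8 T cell markers, 3 were called up (Cd28, Cd3g and Cd4), the last at 0 counts at 33 h and 6 and 3 counts in expanded cells and with its call lost on leaving out any 1 of the 4 libraries, and of 10 myeloid markers Cd68 was. Their part in the results below was not tested. NK cell, erythroid and platelet markers each stayed under 2 CPM.

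Out of 12750 genes tested, 1352 (10.6%) passed edgeR's glmTreat test against a fold change of 1.5 at a Benjamini-Hochberg adjusted p of 0.05. Of these, 885 rose (6.94% of genes tested) and 467 fell (3.66%). These 2 shares are the ones to set beside the counts of each gene list below. The genes that rose moved further: their median log2 fold change was 2.03 and 447 changed more than 4-fold, against a median of -1.50 and 136 genes among those that fell. Over all genes tested the median was -0.02, with quartiles of -0.34 and 0.33. The 4 libraries did not overlap between the stages for any gene called, whereas 3380 of all genes tested had overlapping values. For 101 genes that rose, both 33 h libraries held at most 3 counts, so the fold is a bound only, and the same held in expanded cells for 16 genes that fell. In bulk samples, a change in the share of cells of a kind and a change in RNA per cell cannot be told apart. With 2 libraries against 2, a permutation test of a single gene cannot go below p = 0.333 (two-sided), so the calls rest on the spread shared across genes and stages.

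**Figure D1:**
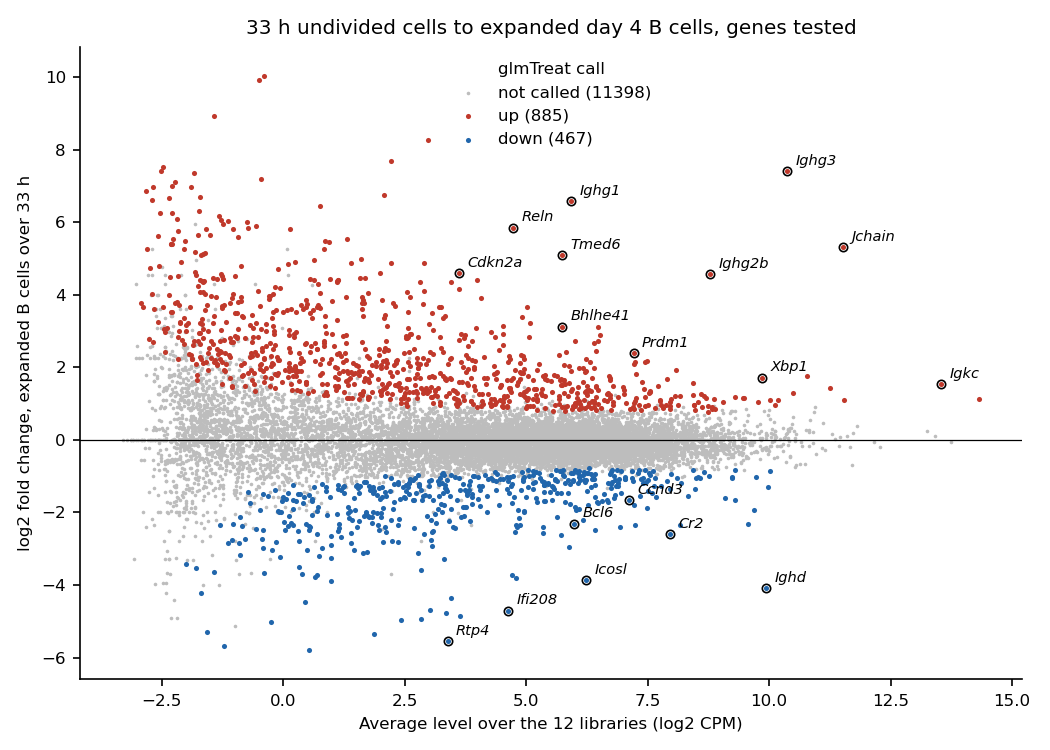
Log2 fold change of expanded B cells over 33 h cells (vertical axis) against the average log2 CPM over the 12 libraries (horizontal axis), 1 point per gene tested. The 885 genes called up (red) reach further from 0 than the 467 called down (blue), and Ighg3 and Ighd stand apart among abundant genes.

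The replicates at 33 h were not placed alike relative to the expanded cells. Replicate 2 lay on the side of the expanded cells for 521 of the 885 genes that rose and, by its lower values, for 402 of the 467 genes that fell, whereas it was the higher replicate for 47.4% of genes not called. Without 33 h replicate 1, the number of calls was 855 in place of 1352. Values of both replicates are therefore given for each gene described, replicate 1 first, as RPKM, which can be compared between genes. A fold change is given on the log2 scale with its standard error (SE), as expanded B cells over 33 h.

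Antibody genes held some of the largest changes among abundant genes. Of 12 immunoglobulin constant genes and Jchain tested, 8 rose (66.7%, against 6.94% of all genes) and 1 fell, and the median log2 fold change was 1.33. Ighg3, the constant region of IgG3 (chromosome 12, 113357442 to 113361232, mm10), stood at 8.56 and 13.8 RPKM at 33 h and at 1588 and 2203 RPKM in expanded cells. The stages were far apart relative to their replicates, with a log2 fold change of 7.42 (SE 0.30, adjusted p = 1.2e-07). Ighg2b went from 18.2 and 25.7 RPKM to 459 and 579 RPKM (4.57, SE 0.17), and Ighg1 from 0.875 and 1.54 RPKM to 81.5 and 142 RPKM (6.59, SE 0.37). Igha, at 1.59 and 1.63 RPKM before and 7.21 and 6.64 RPKM after, rose by far less in level (2.11, SE 0.28, adjusted p = 0.00065). By their level in expanded cells, these genes thus stood in the order Ighg3, Ighg2b, Ighg1 and Igha. Counts per gene do not show whether a transcript came from a rearranged locus, so class switching itself was not measured. Exons of the Ighg genes are similar, and reads shared among them could be assigned to any one of them.

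Unswitched transcripts split. Ighm, the IgM constant region, was already among the most abundant genes at 5366 and 6891 RPKM and reached 12152 and 14418 RPKM (1.12, SE 0.13, adjusted p = 0.0025). Ighd, the constant region of IgD (chromosome 12, 113407535 to 113416324), fell from 473 and 246 RPKM to 19.2 and 23.0 RPKM (-4.10, SE 0.29, adjusted p = 1.1e-05). IgM and IgD are made from the same primary transcript by alternative processing, and Zfp318, a nuclear factor known to be needed for IgD transcripts, fell from 10.1 and 5.88 RPKM to 1.51 and 1.54 RPKM (-2.39, SE 0.22, adjusted p = 5.3e-05). In replicate 2 at 33 h, both Ighd and Zfp318 were lower than in replicate 1, yet still above both expanded libraries. Replicate 1 was likewise the higher for 402 of the 467 genes that fell. A link between Ighd and Zfp318 was not tested. Of the light chain constant genes, Igkc and Iglc1 alone were called. Igkc rose from 6662 and 8921 RPKM to 19646 and 25756 RPKM (1.54, SE 0.15), and Iglc1 from 657 and 719 RPKM to 1471 and 1514 RPKM (1.12, SE 0.10).

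Jchain, which links IgM and IgA into polymers (chromosome 5, 88519809 to 88527897), stood at 7.22 and 9.43 RPKM at 33 h and at 290 and 372 RPKM in expanded cells (5.32, SE 0.36, adjusted p = 8.5e-06). This was below every plasmablast library by a wide margin, where its mean level was 7997 RPKM. Ighg3, in contrast, was at a mean of 1896 RPKM in expanded cells and 4687 RPKM in plasmablasts, and Ighg1 at 112 and 132 RPKM. Among genes of class switch recombination, 2 rose and 1 fell of 34 tested, with a median of -0.30. These shares, 5.88% and 2.94%, are near those of all genes tested, 6.94% and 3.66%. Lig4, the ligase of end joining, rose from 2.84 and 3.38 RPKM to 8.68 and 9.10 RPKM (1.52, SE 0.13), and Nbn, part of the complex that senses double-strand breaks, fell from 17.5 and 18.1 RPKM to 9.02 and 8.79 RPKM (-0.998, SE 0.10).

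**Figure D2:**
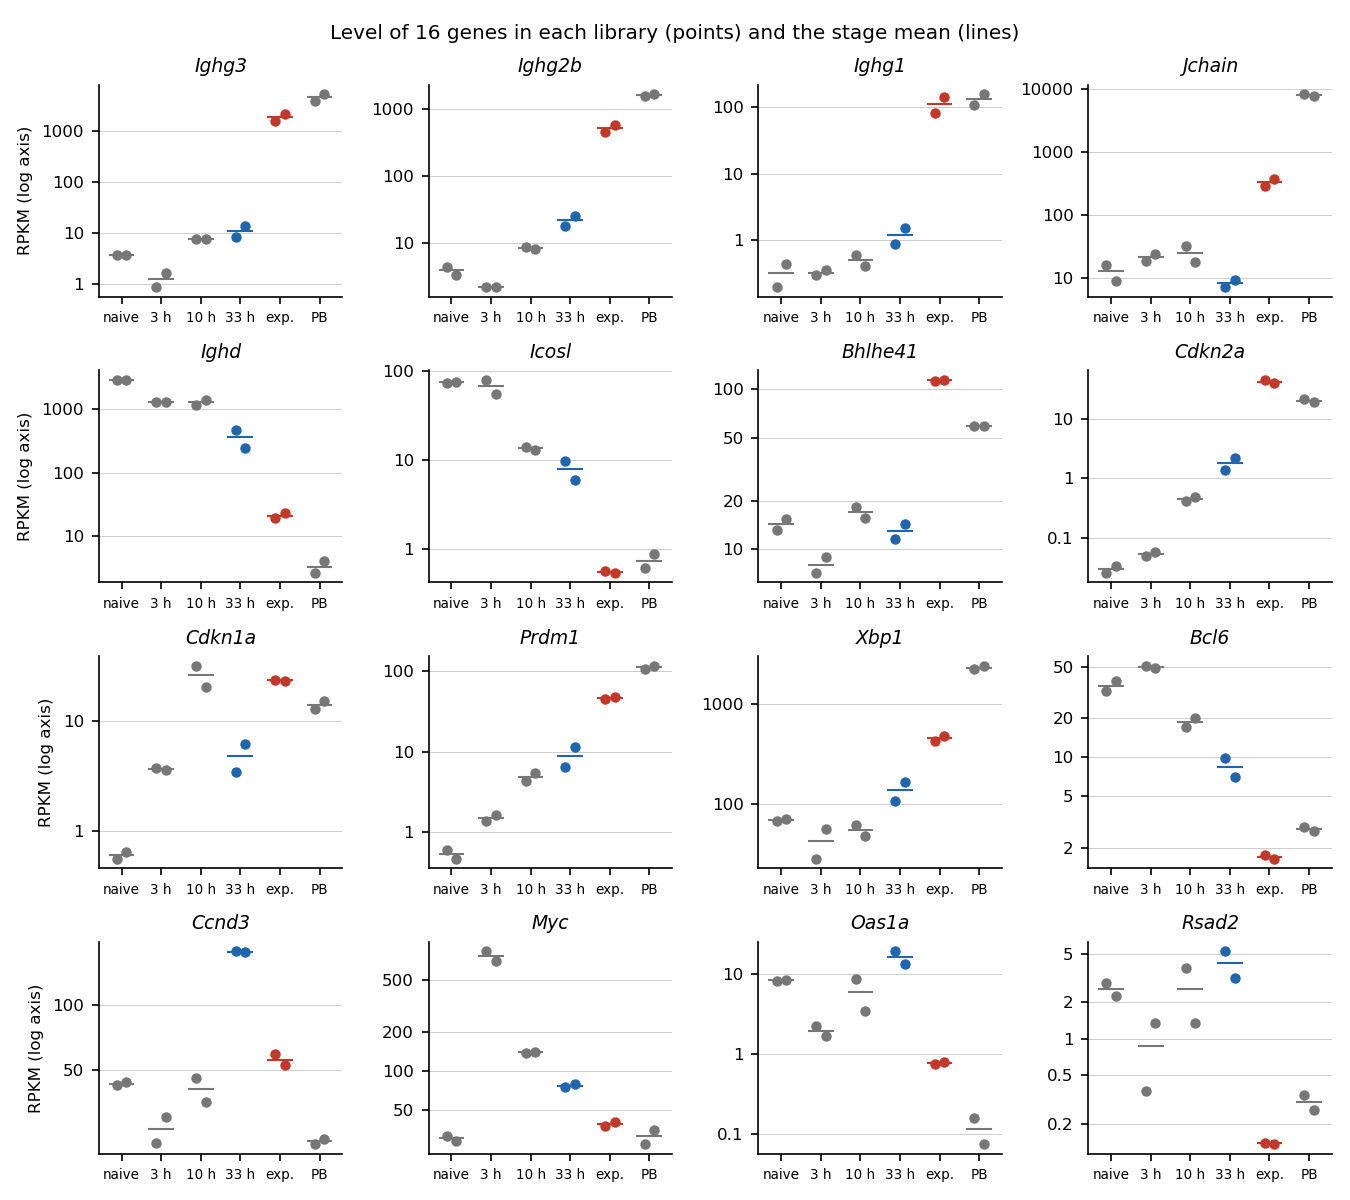
RPKM (log axes) of 16 genes in each of the 12 libraries by stage, where exp. is expanded B cells and PB plasmablasts. Points are libraries and short lines the mean of 2, with 33 h in blue and expanded cells in red. Ighg3 rises from 8.56 and 13.8 RPKM to 1588 and 2203 RPKM between them, and Oas1a falls from 19.0 and 13.1 RPKM to 0.755 and 0.794 RPKM.

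Genes known from plasma cells rose although the cells were sorted as CD138-. Of 34 such genes tested, 20 rose (58.8%, against 6.94% of all genes) and none fell, with a median of 1.11. Prdm1, which encodes the plasma cell regulator Blimp-1, stood at 6.42 and 11.5 RPKM at 33 h and at 44.6 and 48.4 RPKM in expanded cells (2.38, SE 0.23, adjusted p = 7.9e-05). Xbp1, the factor that expands the ER, went from 109 and 168 RPKM to 426 and 486 RPKM (1.72, SE 0.28, adjusted p = 0.0076), and lost its call when 33 h replicate 1 was left out. Both had reached only part of the plasmablast level, at means of 111 RPKM for Prdm1 and 2335 RPKM for Xbp1. Ell2, an elongation factor of secreted antibody transcripts, rose from 15.1 and 24.6 RPKM to 45.6 and 53.8 RPKM (1.33, SE 0.23, adjusted p = 0.013), a call that was lost without 33 h replicate 1 and without expanded replicate 2. Hid1 (2.41, SE 0.29) and Creb3l2 (2.08, SE 0.19), the latter a transcription factor of the secretory pathway, rose as well. Cd28 was called too, at 9 and 6 counts at 33 h and 103 and 148 counts in expanded cells. Irf4 was at 73.3 and 102 RPKM before and 147 and 163 RPKM after, and was not called (0.82, SE 0.17, adjusted p = 0.18), but was without 33 h replicate 2. The summed plasmablast markers stood at 569 and 841 CPM at 33 h, at 2191 and 2536 CPM in expanded cells and at 16401 to 16913 CPM in plasmablasts, and the part of cells turning into plasmablasts in these rises was not tested. Without 33 h replicate 1, 14 genes of the plasma cell list rose in place of 20.

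Genes of the ER rose or were not called. All 65 of its members tested had a positive log2 fold change, as did 6071 of all 12750 genes tested. Of the 65, 27 rose (41.5%, against 6.94% of all genes) and none fell, and the median was 0.81 against -0.02 over all genes. The list did not move far in any single gene: the largest changes were those of the stress sensor Ern1 (1.33 and 1.66 RPKM to 6.55 and 6.62 RPKM, 2.15, SE 0.17), of Tram2 (2.05, SE 0.13), a translocation factor, and of Edem3 (1.81, SE 0.12), which trims misfolded glycoproteins. The most abundant members were Mzb1, a chaperone of B cells, at 397 and 588 RPKM before and 1607 and 1731 RPKM after (1.76, SE 0.14), and Hsp90b1, at 390 and 606 RPKM before and 1019 and 1122 RPKM after (1.10, SE 0.15). Pdia6, a disulfide isomerase, went from 229 and 307 RPKM to 518 and 528 RPKM (0.97, SE 0.12). The calls of Pdia6 and Hsp90b1 were lost without expanded replicate 2, and that of Pdia6 also without 33 h replicate 1. At 33 h, 26 of the 27 genes that rose were higher in replicate 2 than in replicate 1. The count was 17 without 33 h replicate 1 or without expanded replicate 2, and 35 without 33 h replicate 2.

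Later steps of secretion had fewer calls. Of 60 genes of COPI, COPII and Golgi traffic, 6 rose (10.0%, against 6.94% of all genes) and none fell (median 0.34). The rises were led by the vesicle coat gene Sec24d at 2.88 and 4.48 RPKM before and 20.4 and 26.5 RPKM after (2.68, SE 0.21). Without 33 h replicate 1 or without expanded replicate 2, the list held 1 rise. Among 46 genes of N-glycosylation, 3 rose and 1 fell (median 0.26). These shares, 6.52% and 2.17%, are no higher than the 6.94% and 3.66% of all genes. Of the 46, however, 73.9% were higher in both expanded libraries than in either 33 h library, as were 34.6% of all genes tested. St6gal1 (1.19, SE 0.08) and Man1a (1.15, SE 0.08) rose, as did Ostc (0.89, SE 0.10), while Mogs fell (-0.85, SE 0.11). Mogs lost its call under 7 of the 17 alternatives, among them those without 33 h replicate 2 and without expanded replicate 1, which left no fall in the list, and Ostc lost it under 3, among them those without 33 h replicate 1 and without expanded replicate 1. Tmed6, a member of a family of cargo receptors, was among the largest rises of all abundant genes, from 1.84 and 3.14 RPKM to 75.6 and 89.5 RPKM (5.10, SE 0.25).

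Interferon-stimulated genes made up 50 of the 467 falls. These genes are switched on through STAT factors and Irf9 when a cell senses type I interferon, and many encode antiviral proteins. Of 96 tested, 50 fell and none rose, which is 52.1% against 3.66% of all genes tested. The median was -1.16, and 81 of the 96 were lower in both expanded libraries than in either 33 h library, as were 38.9% of all genes tested. Members that fell more than 16-fold included Rtp4, at 17.2 and 9.79 RPKM before and 0.286 and 0.286 RPKM after (-5.55, SE 0.79, adjusted p = 0.0011), Rsad2, at 5.28 and 3.17 RPKM before and 0.139 and 0.135 RPKM after (-4.94, SE 0.69, adjusted p = 0.00098), and Usp18, at 15.04 and 8.84 RPKM before and 0.523 and 0.390 RPKM after (-4.70, SE 0.71). All 3 were low and nearly equal in the expanded libraries, and unequal at 33 h. Oas1a, an RNA sensor that activates RNase L, went from 19.0 and 13.1 RPKM to 0.755 and 0.794 RPKM (-4.37, SE 0.41). Slfn1 and Ifi44 were called from under 1 RPKM, both were at no more than 3 counts in expanded cells, and both lost the call without 33 h replicate 1 and without either expanded replicate.

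Regulators and sensors were among the genes that fell. Irf7 stood at 35.9 and 21.9 RPKM at 33 h and at 4.98 and 5.96 RPKM in expanded cells (-2.41, SE 0.45, adjusted p = 0.0094), and its call was lost without 33 h replicate 1 and without either expanded replicate. Irf9, a subunit of the complex named above, fell from 40.2 and 30.2 RPKM to 11.4 and 9.74 RPKM (-1.74, SE 0.22). Ifih1 and Dhx58, sensors of viral RNA, fell by 1.59 (SE 0.17) and 1.58 (SE 0.29) on the log2 scale, and Isg15 went from 134 and 127 RPKM to 39.8 and 43.1 RPKM (-1.65, SE 0.17). Of the 50 genes that fell, 49 were higher in replicate 1 than in replicate 2 at 33 h, with a median log2 ratio of replicate 2 to replicate 1 of -0.50. Without 33 h replicate 1 the number that fell was 28, without expanded replicate 1 it was 33 and without expanded replicate 2 it was 32, and none rose in any of these fits. Near-identical copies among the Oas1, Slfn, Ifit3 and Trim30 genes can share reads, so single members of these families are less certain than the list. Outside the list, Ifi208 of the interferon-inducible PYHIN family, which also has close relatives, fell from 13.0 and 7.71 RPKM to 0.444 and 0.342 RPKM (-4.71, SE 0.59, adjusted p = 0.00052).

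Promoters of these genes often hold the core of the interferon-stimulated response element, to which the STAT and Irf9 complex binds. GAAA followed by any 2 bases and GAAA again was searched on both strands of the window from 250 bases before to 50 bases after the start of each gene. It was found for 23 of 39 interferon-stimulated genes that fell and had a promoter entry, for 14 of 34 that were not called, and for 388 of 9919 genes tested with an entry, or 3.91%. The stretches below, from RefSeq promoters on GRCm38.p6, are shown for genes that fell and read 5′ to 3′ on the strand of the gene, with matches in capitals. They are Ifit3 (chr19:34583317-34583436, plus strand), Rsad2 (chr12:26456543-26456662, minus strand) and Isg15 (chr4:156200855-156200974, minus strand), where 3 matches of Isg15 run into each other.
Ifit3: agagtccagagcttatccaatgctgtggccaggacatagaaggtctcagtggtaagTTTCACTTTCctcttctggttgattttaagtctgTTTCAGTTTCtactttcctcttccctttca
Rsad2: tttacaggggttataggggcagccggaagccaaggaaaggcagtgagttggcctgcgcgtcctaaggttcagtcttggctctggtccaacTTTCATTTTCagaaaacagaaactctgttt
Isg15: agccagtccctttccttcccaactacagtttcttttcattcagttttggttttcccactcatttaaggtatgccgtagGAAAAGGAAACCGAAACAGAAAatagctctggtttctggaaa
The capitals of Ifit3 and Rsad2 are the reverse complement of the searched letters.

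For the ER genes, the ER stress response element was searched as CCAAT and CCACG with any 9 bases between them, on both strands of the same window. It was found for 5 of 22 ER genes that rose and had an entry, for 5 of 29 not called, and for 16 of 9919 genes tested (0.161%). Hsp90b1 (chr10:86705513-86705661, minus strand) holds 2 matches, 1 in each orientation, and Pdia6 (chr12:17266410-17266529, plus strand) holds 1.
Hsp90b1: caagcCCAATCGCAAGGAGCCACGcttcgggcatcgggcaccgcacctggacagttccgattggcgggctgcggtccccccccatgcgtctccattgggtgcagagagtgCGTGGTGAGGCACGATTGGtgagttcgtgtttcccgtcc
Pdia6: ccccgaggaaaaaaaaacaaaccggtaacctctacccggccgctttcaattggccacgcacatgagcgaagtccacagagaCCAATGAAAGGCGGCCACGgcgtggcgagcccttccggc
A match is a description of the sequence and was not tested as a site of binding.

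**Figure D3:**
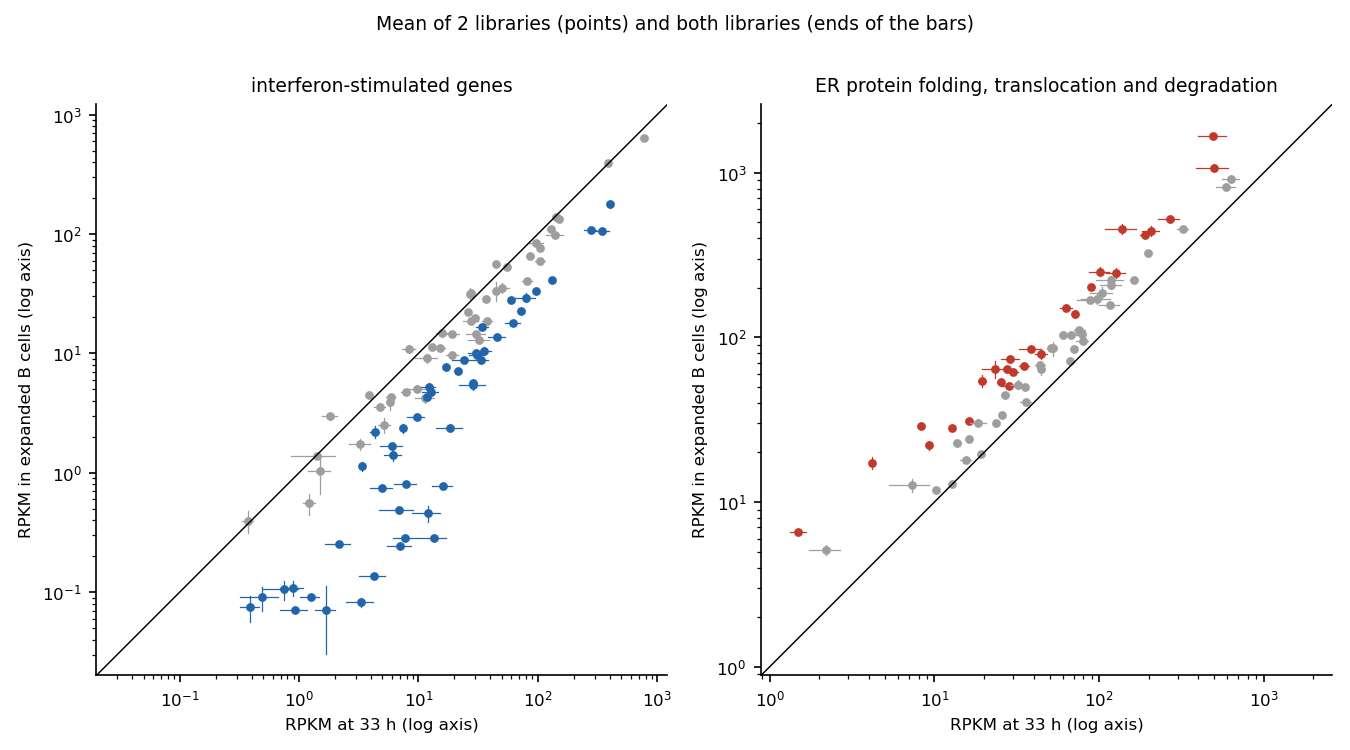
Mean RPKM in expanded B cells against mean RPKM at 33 h (log axes) for interferon-stimulated genes (left, 93 of 96 drawn, the other 3 being at 0 in a library) and ER genes (right, 65 of 65). The bars end at the values of the 2 libraries and the line marks equal levels. The 50 interferon-stimulated genes called down (blue) lie under the line with wide bars at 33 h, and the 27 ER genes called up (red) lie above it.

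Several receptors known from mature B cells fell. Cr2, the complement receptor CD21, stood at 21.9 and 26.4 RPKM at 33 h and at 4.09 and 3.93 RPKM in expanded cells (-2.59, SE 0.11, adjusted p = 4.1e-08). Fcer2a, the IgE receptor CD23, fell from 125 and 79.3 RPKM to 23.4 and 17.8 RPKM (-2.31, SE 0.19), and Fcmr, the IgM receptor, from 337 and 195 RPKM to 64.4 and 74.6 RPKM (-1.94, SE 0.20). Across 59 genes of the B cell receptor, its coreceptors and its signalling, 9 fell (15.3%, against 3.66% of all genes). A rise was called for 2 (3.39%, against 6.94%). The median was -0.02, and most of the list was not called. There were 4 falls and 1 rise without 33 h replicate 1, and 5 falls and 1 rise without expanded replicate 2. Cd22, on which the expanded cells were gated, fell from 238 and 171 RPKM to 101 and 96.1 RPKM (-1.05, SE 0.12), and lost its call without 33 h replicate 1. Dok3, an adaptor that dampens receptor signals, rose from 20.6 and 14.4 RPKM to 52.5 and 58.9 RPKM (1.66, SE 0.14), and Ptpn22 rose by 0.85 (SE 0.09) on the log2 scale, a call lost without 33 h replicate 1 and without expanded replicate 2.

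B cell identity factors were called in both directions, with 14.8% falling and 11.1% rising, against 3.66% and 6.94% of all genes tested. Of 27 tested, 4 fell and 3 rose, and 7 fell without 33 h replicate 2. Bcl6, which represses Prdm1 in germinal centre cells, fell from 9.91 and 6.999 RPKM to 1.77 and 1.65 RPKM (-2.31, SE 0.16, adjusted p = 3.8e-06), and Bach2, another repressor of Prdm1, from 22.0 and 17.2 RPKM to 6.83 and 6.70 RPKM (-1.54, SE 0.19). Tbx21 (-2.03, SE 0.29) and Bcl11a (-1.16, SE 0.18) fell as well. Pou2af1, the coactivator of octamer factors, rose from 210 and 264 RPKM to 495 and 530 RPKM (1.11, SE 0.10), together with Mef2b (1.16, SE 0.16) and Myb (1.07, SE 0.13). Mef2b lost its call without 33 h replicate 1 and without expanded replicate 2. Pax5, which maintains B cell identity, was at 168 and 123 RPKM before and 77.2 and 75.4 RPKM after and missed the threshold (-0.93, SE 0.16, adjusted p = 0.063), which it passed without 33 h replicate 2. Ebf1 (-0.45, SE 0.10) and Ciita (-0.21, SE 0.22) were not called. Of 16 genes of MHC class II, only Ifi30, a reductase of antigen processing, was called (-1.04, SE 0.11), and the median was -0.17. In fits that left out 1 library, 3 of them fell without 33 h replicate 2 and 1 rose without 33 h replicate 1.

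Surface molecules were called in both directions. Among 45 costimulation and activation genes, 11 rose and 9 fell, where 6.94% and 3.66% of all genes did, and the median was 0.10. Icosl, the ligand of the T cell receptor ICOS (chromosome 10, 78069368 to 78079525), fell from 9.81 and 5.97 RPKM to 0.556 and 0.535 RPKM (-3.86, SE 0.28, adjusted p = 6.3e-06). It had been falling since the naive stage, where its mean was 75.3 RPKM. Slamf1 (-2.41, SE 0.16), the cytokine gene Tnf (-2.24, SE 0.17), Cd40 (-1.20, SE 0.08), Cd83 (-1.03, SE 0.14) and Cd86 (-0.94, SE 0.15) also fell. On the other side, the inhibitory receptor gene Vsir rose from 2.51 and 3.38 RPKM to 24.5 and 26.5 RPKM (3.12, SE 0.14, adjusted p = 4e-08). Ctla4, at 0.277 and 0.724 RPKM before and 2.48 and 4.65 RPKM after (2.93, SE 0.40), and Pdcd1, at 2.81 and 4.49 RPKM before and 11.3 and 11.8 RPKM after (1.68, SE 0.18), are inhibitory receptors too. Cd80 rose (1.55, SE 0.25) while Cd86, which binds the same receptors, fell.

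Some homing receptors fell (10.3%) and others rose (17.2%), against 3.66% and 6.94% of all genes tested. Ccr7 and Cxcr5, which guide B cells to T cell zones and follicles, fell from 85.9 and 57.3 RPKM to 23.8 and 23.2 RPKM (-1.61, SE 0.16) and from 249 and 214 RPKM to 96.2 and 92.3 RPKM (-1.30, SE 0.09). Ccr10, which guides antibody-secreting cells to mucosal tissue, rose from 0.150 and 0.132 RPKM to 3.26 and 5.36 RPKM (4.89, SE 0.34, adjusted p = 1.3e-06), and Ccr9, a receptor for gut homing, from 0.118 and 0.149 RPKM to 1.19 and 1.55 RPKM (3.37, SE 0.27). Cxcr4, which holds plasma cells in bone marrow, rose from 8.91 and 11.2 RPKM to 30.2 and 35.5 RPKM (1.71, SE 0.31). Of 29 genes of this list tested, 5 rose and 3 fell, and 6 fell without 33 h replicate 2. The rising receptors stayed low in level next to Cxcr5.

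Most proliferation genes were not called, although the cells compared had not yet divided at 33 h and had divided many times by day 4. Of 93 genes of mitosis and spindle, 3 rose (3.23%, against 6.94% of all genes) and 1 fell (1.08%, against 3.66%). The median was 0.25. Of 66 genes of DNA replication, none rose and 4 fell (6.06%), with a median of -0.32. Among the mitosis genes, 54.8% were higher in both expanded libraries than in either 33 h library, as were 34.6% of all genes tested. Among the replication genes, 78.8% were lower in both expanded libraries, as were 38.9% of all genes tested. Cdc25b, a phosphatase that triggers mitotic entry, rose from 15.3 and 22.4 RPKM to 75.2 and 86.9 RPKM (2.11, SE 0.15), Ccnb2 from 23.1 and 42.6 RPKM to 94.2 and 93.2 RPKM (1.52, SE 0.21) and Cenpa from 20.6 and 40.0 RPKM to 84.0 and 87.2 RPKM (1.51, SE 0.33). These 3 were higher in replicate 2 at 33 h, and without 33 h replicate 2 the number of mitosis genes that rose was 19. Cenpa lost its call without 33 h replicate 1 and without either expanded replicate. Foxm1, a regulator of mitotic genes, was at 18.7 and 21.3 RPKM before and 23.4 and 26.8 RPKM after and was not called (0.33, SE 0.11). In the opposite direction, Pold1 (-1.06, SE 0.19), Chtf18 (-1.03, SE 0.11), Chaf1b (-0.92, SE 0.11) and Pold3 (-0.91, SE 0.09) fell. The list held 3 falls without either 33 h replicate and 2 without either expanded replicate, since Pold1 lost its call in all 4 of these fits and Chaf1b in the latter 2. A single gene of 40 in homologous recombination and the Fanconi pathway, Fanci, fell (-0.82, SE 0.09), and none rose (median -0.35). Fanci lost its call under 8 of the 17 alternatives, among them the omission of any 1 of the 4 libraries, which left 0 falls.

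Of 37 genes of G1 cyclins, cyclin-dependent kinases, their inhibitors and E2F factors, 4 rose (10.8%, against 6.94% of all genes). A fall was called for 3 (8.11%, against 3.66%), and the median was -0.03. Ccnd3, the D-type cyclin, stood at 178 and 177 RPKM at 33 h and at 59.1 and 52.9 RPKM in expanded cells (-1.67, SE 0.13, adjusted p = 2.3e-05). E2f1 fell from 46.4 and 42.9 RPKM to 18.9 and 19.3 RPKM (-1.22, SE 0.16), and Myc from 74.2 and 78.5 RPKM to 37.4 and 39.8 RPKM (-0.98, SE 0.12, adjusted p = 0.0066). Myc lost its call without expanded replicate 1. Cdkn2a, the locus of the inhibitors p16 and p19, rose from 1.40 and 2.16 RPKM to 44.7 and 39.2 RPKM (4.59, SE 0.19, adjusted p = 2.3e-08). Counts per gene do not separate its products. Cdkn1a, the inhibitor p21, went from 3.43 and 6.27 RPKM to 24.1 and 23.4 RPKM (2.31, SE 0.26), and Cdkn2b from 0.755 and 2.25 RPKM to 6.74 and 6.55 RPKM (2.21, SE 0.38). Mxd1, which competes with Myc for its partner, rose too (1.19, SE 0.18).

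Of 28 targets of p53 tested, Cdkn1a among them, 7 rose and none fell, 25.0% against 6.94% of all genes, with a median of 0.57. Leaving out 33 h replicate 2 gave 2 falls. The p19 product of Cdkn2a is known to stabilise p53. Ccng1, the most abundant of them, went from 60.2 and 72.7 RPKM to 209 and 184 RPKM (1.57, SE 0.12), and Phlda3 from 3.03 and 4.41 RPKM to 17.8 and 15.6 RPKM (2.19, SE 0.22). Gdf15 (2.69, SE 0.46), Plk2 (2.19, SE 0.25), Zmat3 (1.96, SE 0.15) and Trp53inp1 (1.69, SE 0.18) also rose. In the Bcl2 family, 3.57% of genes rose and 14.3% fell, against 6.94% and 3.66% of all genes tested. Bmf, a pro-apoptotic member, rose from 4.47 and 3.36 RPKM to 13.8 and 15.3 RPKM (1.89, SE 0.17). The survival genes Bcl2a1d (-1.28, SE 0.13), Bcl2a1b (-1.26, SE 0.14) and Bcl2a1a (-1.10, SE 0.17), near-identical copies that share reads, fell. Of the 28 genes of this family tested, 1 rose and 4 fell, and 2 fell without 33 h replicate 1.

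Growth genes had few calls outside the glycolysis list, where 11.6% rose against 6.94% of all genes tested. Of 96 genes of ribosome biogenesis, Polr1b (-0.98, SE 0.10), Heatr1 (-0.89, SE 0.08) and Mybbp1a (-0.86, SE 0.10) fell, a share near that of all genes, and none rose. The median was -0.39, and 84 of the 96 were lower in both expanded libraries than in either 33 h library, as were 38.9% of all genes tested. Leaving out 33 h replicate 1 gave 6 falls, and Mybbp1a lost its call without 33 h replicate 2 and without either expanded replicate. Glycolysis and the pentose phosphate pathway had 5 rises and 1 fall among 43 genes with a median of 0.01, and 3 rises without 33 h replicate 1 or without expanded replicate 2. The fall in the main fit was that of Eno3 (-2.30). Some of the rises were in genes of the list that encode no enzyme of these pathways. They were Egln3, an oxygen-dependent hydroxylase, at 0.438 and 0.650 RPKM before and 2.90 and 2.78 RPKM after (2.42, SE 0.21), Slc16a3, a lactate exporter (2.86, SE 0.27), and Vegfa (2.33, SE 0.45). Ldhb, a lactate dehydrogenase subunit, was called from 1 and 0 counts at 33 h, with 30 and 29 counts in expanded cells. Hif1a itself was not called (-0.29, SE 0.08). Of 73 respiratory chain genes, 71.2% were higher in both expanded libraries than in either 33 h library, as were 34.6% of all genes tested. The list had a median of 0.22, and Cox4i1 (0.76, SE 0.07) and Cox6c (0.81, SE 0.10) rose, 2.74% of the list. That share is below the one of all genes, and both calls were lost without either 33 h replicate and without expanded replicate 1.

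Signalling genes were called in both directions, where 6.94% of all genes tested rose and 3.66% fell. Of 60 genes of cytokines, their receptors and STAT feedback, 10.0% rose and 11.7% fell, and of 37 immediate early genes 18.9% and 8.11%. Of 53 genes of NF-kB and Toll-like receptors, 5 fell (9.43%) and 2 rose (3.77%), with a median of -0.37. Traf1 fell from 99.7 and 103 RPKM to 38.5 and 38.5 RPKM (-1.40, SE 0.09), and Tlr9, Tlr1 and Tlr3 by 1.36 (SE 0.15), 1.25 (SE 0.14) and 2.60 (SE 0.42) on the log2 scale. Tnip3, an inhibitor of NF-kB, rose from 0.174 and 0.114 RPKM to 1.78 and 1.92 RPKM (3.63, SE 0.37). The other gene of this list to rise was Tirap (1.30 on the log2 scale). Among 60 genes of cytokines, their receptors and STAT feedback, 6 rose (2 without 33 h replicate 1) and 7 fell (4 without either expanded replicate): Il6ra rose from 1.27 and 1.55 RPKM to 9.59 and 10.3 RPKM (2.83, SE 0.13) with its partner chain Il6st (1.32, SE 0.11), and Socs3, a feedback inhibitor of that receptor, fell from 9.69 and 8.21 RPKM to 1.79 and 1.55 RPKM (-2.42, SE 0.17). Immediate early genes were split, with 7 rises and 3 falls of 37. The rises numbered 3 without either 33 h replicate or without expanded replicate 2, and the falls 1 without 33 h replicate 1 or without expanded replicate 1. Rgs2 (2.27, SE 0.14) and Dusp4 (2.14, SE 0.18) rose and Nr4a1 (-1.88, SE 0.32), a gene induced by antigen receptor signals, fell, a call lost in the latter 2 fits.

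**Figure D4:**
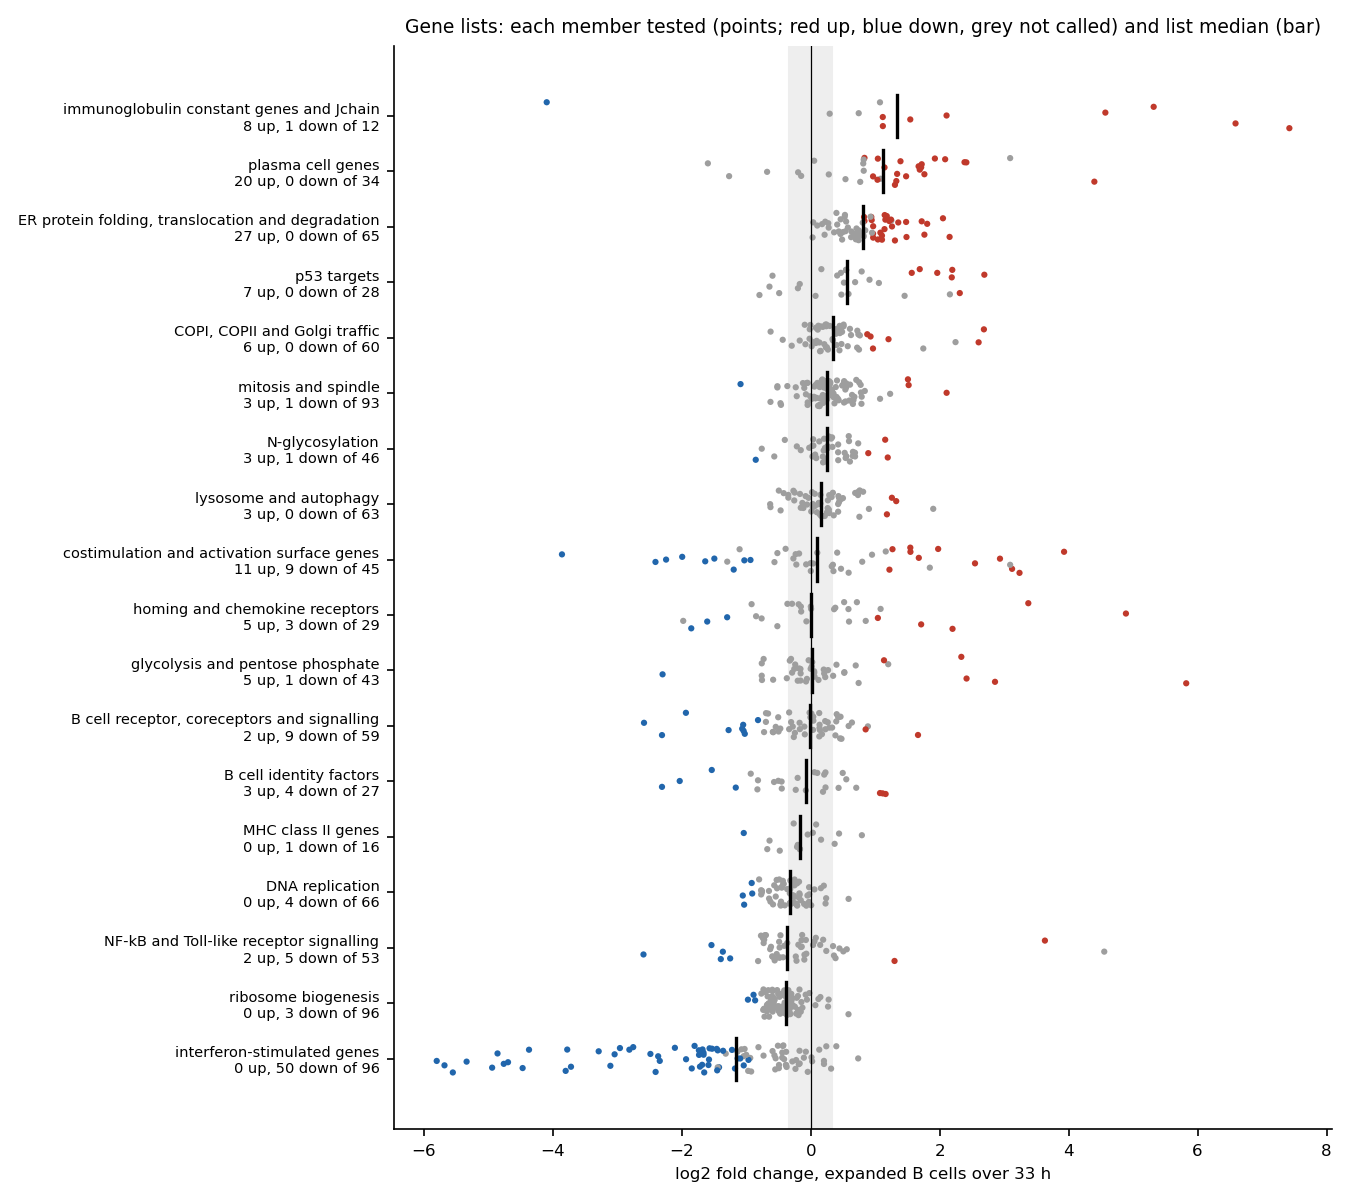
Log2 fold change of expanded B cells over 33 h for the members tested of 18 gene lists, 1 point per gene (red up, blue down, grey not called), with the list median as a black bar. The grey band spans the quartiles of all genes tested, -0.34 to 0.33. Medians lie below it for the interferon-stimulated genes (-1.16), ribosome biogenesis (-0.39) and NF-kB and Toll-like receptors (-0.37). Above it are those of immunoglobulin constant genes and Jchain (1.33), plasma cell genes (1.11) and ER genes (0.81). Those of p53 targets (0.57) and of COPI, COPII and Golgi traffic (0.34) are above it too.

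Several of the largest changes lay outside these lists. The genes named here had an average log2 CPM of at least 4 over the 12 libraries. That average includes the plasmablast libraries, so genes high in plasmablasts pass it more easily than genes high in expanded cells alone. Dkk3, with a rise of 8.26 on the log2 scale, did not pass and is given under other observations. Reln, a secreted matrix protein, rose from 0.0206 and 0.0293 RPKM to 1.19 and 1.62 RPKM (5.85, SE 0.27). Nuggc, a GTPase known from germinal centre B cells, rose from 0.195 and 0.311 RPKM to 3.01 and 4.40 RPKM (3.92, SE 0.23). Both were low in the 4 libraries compared and highest in plasmablasts, at means of 11.9 RPKM for Reln and 36.1 RPKM for Nuggc. Ckb, a creatine kinase, went from 1.82 and 1.51 RPKM to 16.3 and 19.1 RPKM (3.39, SE 0.18). Bhlhe41, a repressor known from B-1a cells, stood at 11.7 and 14.4 RPKM at 33 h and at 113 and 115 RPKM in expanded cells (3.13, SE 0.14, adjusted p = 4e-08), above its plasmablast mean of 58.8 RPKM. Itgb3, an integrin chain (3.22, SE 0.14), Dusp14, a phosphatase (3.15, SE 0.33), and Mt1, a metallothionein (2.98, SE 0.22), rose too. Falls in this group were those of Sdc3, a syndecan (12.6 and 7.46 RPKM to 0.710 and 0.809 RPKM, -3.73, SE 0.49), Lfng, a modifier of Notch (-2.62, SE 0.25), Rnf144a (-2.56, SE 0.25), Ttc28 (-2.53, SE 0.24), Treml2 (-2.48, SE 0.18) and Sorl1, a sorting receptor (-2.34, SE 0.22). Laptm5, a lysosomal protein that lowers antigen receptor levels, was among the most abundant genes to rise, from 622 and 585 RPKM to 1603 and 1643 RPKM (1.43, SE 0.09), and Tubb5, a tubulin, fell from 482 and 568 RPKM to 260 and 259 RPKM (-1.01, SE 0.10).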

How the data were processed

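RNA was taken from sorted B cells at 6 stages with 2 libraries each, described in the study's methods as biological duplicates. Poly(A) libraries were sequenced on a NextSeq 500 without keeping strand, so overlapping and antisense genes cannot be told apart. The deposited values are raw read counts per Entrez gene. The submitters' processing notes name CASAVA 1.8.2, featureCounts and mm10 (GRCm38), and the methods name Rsubread with its inbuilt annotation. The 12 sample files equalled the series table of 27179 genes, of which 25275 matched RefSeq.

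Unmatched, ribosomal RNA, X and Y, mitochondrial and variable immunoglobulin genes were set aside. Of the remaining 23700 genes, 12750 passed filterByExpr and were tested. A trimmed-mean (TMM) scaled quasi-likelihood model of the 6 stages was fitted to the counts in edgeR 4.0.16 (R 4.3.3), and genes were called by glmTreat against a 1.5-fold change at a Benjamini-Hochberg adjusted p of 0.05. All adjusted p-values and SE come from this fit and measure the spread between these libraries. RPKM used the deposited gene lengths. In data simulated for this comparison over 12548 genes, 42% of genes changed 2-fold and 98% of those changed 4-fold were called. Of unchanged genes, 0 were called. These had equal means at both stages in the simulation, so the 1.5-fold threshold left few such calls to expect. The simulated counts followed the spread fitted by expression level, with no offset between replicates. They therefore do not give the error rate of the real libraries. Totals set the precision: 3 counts, taken as the lowest level read, equal 0.0495 and 0.0829 CPM at 33 h and 0.0717 and 0.0853 CPM in expanded cells (counting error only).

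Members and gene lists were chosen with earlier results of these data known, so list counts are descriptions, beside the share of all genes. Named genes were the 4 markers, the 15 largest rises and falls above a mean expression over the 12 libraries of 4 on the log2 CPM scale, the 3 largest changes a direction of each list, genes the study discusses, the 10 most abundant genes called and the 5 largest changes a direction in removed classes. Not all of these are described above. Other list members are given by value. The alternatives were 17 settings with other scalings, tests and filters, DESeq2 1.42.0, a replicate block, thinning and leaving out each library. The results for a few genes are not reported here.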

Additional observations from a re-analysis of the deposited data

Results flagged for a closer look

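Genes of removed classes carried signal in expanded B cells. Variable immunoglobulin genes took 0.358% and 0.479% of counts at 33 h and 1.13% and 1.284% in expanded cells, a mean of 1.21%, and in a fit that kept them 188 of 232 rose and none fell, with a median log2 fold change of 1.47. These segments are similar in sequence and share reads.

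Of 445 genes on the X and Y chromosomes, 19 rose and 12 fell in that fit. The genes named here lie on X. The largest rises were from near 0 at 33 h to low levels in expanded cells. Eda2r, a receptor known as a p53 target, was at 0 counts in both 33 h libraries and at a mean of 0.407 CPM in expanded cells. Klhl13 reached a mean of 1.17 CPM, Lpar4 of 0.568 CPM, Cldn2 of 1.11 CPM and Tmem255a of 2.34 CPM, each with at most 0.215 CPM in a 33 h library. The largest fall at a measurable level was that of Fgf13, from 4.47 and 2.87 CPM to 0.191 and 0.484 CPM (-3.49, SE 0.37, adjusted p = 5e-05 by edgeR's glmTreat).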

How the results depend on the processing

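No gene called changed direction under any of the 17 alternatives. Of 153 named genes, 141 were called, and 100 of these were called under every alternative. The number called was 1344 to 1423 under other scalings, no robust mode, the newer quasi-likelihood method and the 4 libraries alone. It was 895 (603 up and 292 down) by the DESeq2 Wald test, and 5053 (2353 up and 2700 down) by an F-test without a fold threshold, which turned the share of rises from 65.5% to 46.6%. Without a filter on low counts 1577 genes were called, with an average of at least 1 CPM 1060, with removed classes kept 1621, and after thinning to the smallest total 1113. Leaving out 1 library gave 855 to 1384 calls, 580 to 834 rises and 275 to 550 falls. The lowest values were those without 33 h replicate 1, and without expanded replicate 2 the falls numbered 306. Each such fit assumes that the lone library of its stage varies like the other stages, and the cause of these shifts was not tested.

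With the replicate number as a block, 1332 genes were called (871 up and 461 down). The number pairs nothing in the labels, and deviations of same-numbered 33 h and expanded libraries correlated at 0.0179. With 2 pairs, no further check of pairing was made. The effect of depth was read only from thinning to the smallest total. Alternatives were run gene by gene for the named genes and as counts for each list, and not for other list members given by value.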

Other observations

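Of the 885 that rose, 495 (55.9%) had their highest stage mean in plasmablasts and 263 (29.7%) in expanded cells, against 23.3% and 9.50% of all genes tested. Choosing the genes by their rise fixes part of this. In 48 genes the expanded mean was at least 4-fold above every other stage, 15 of them from at most 3 counts in each 33 h library. The following were chosen after their values were seen. Dkk3, a secreted inhibitor of Wnt signalling, went from 0.0360 and 0.0510 RPKM at 33 h to 13.6 and 12.7 RPKM (8.26, SE 0.33), with a plasmablast mean of 0.271 RPKM. Rgs16, a regulator of G protein signalling, went from 0.340 and 0.244 RPKM to 7.44 and 10.2 RPKM (4.87, SE 0.25). Cdh17, a cadherin, went from 3.24 and 4.56 RPKM to 24.9 and 22.9 RPKM (2.63, SE 0.15), with a plasmablast mean of 1.52 RPKM. Dapk2, a kinase linked to cell death, went from 1.58 and 1.68 RPKM to 9.47 and 9.21 RPKM (2.52, SE 0.22).

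Most supply and disposal genes were not called. Of ATF4 targets and amino acid genes, 9.80% rose and 1.96% fell, against 6.94% and 3.66% of all genes tested. In the other lists of this paragraph, 0% to 4.76% rose and 0% to 4.35% fell. Of 51 ATF4 targets and amino acid genes, 5 rose and 1 fell, with 2 rises without 33 h replicate 1, 3 without expanded replicate 2 and 11 in a fit of the 4 libraries alone. Asns, which makes asparagine, went from 9.27 and 17.6 RPKM to 53.01 and 58.7 RPKM (2.07, SE 0.35) and Atf3 fell (-1.98, SE 0.18). Lysosome and autophagy genes had 3 rises and no fall among 63: the sialidase Neu1 (1.32, SE 0.14), Map1lc3a (1.26, SE 0.18) and the proton pump subunit Atp6v0a1 (1.18, SE 0.12). Without 33 h replicate 2, 5 rose and 1 fell, and Map1lc3a lost its call without expanded replicate 2. Among 48 genes of cholesterol and fatty acid metabolism, 2 rose, among them Fads2 (1.06, SE 0.15), and Mylip fell (-1.26, SE 0.20). Of 58 chromatin regulators, Pcgf5 alone was called (-0.88, SE 0.10). Of 23 quiescence factors, Btg1 rose (0.91, SE 0.13) and Slfn2 fell (-1.36, SE 0.24). Each call in these last 3 lists was lost on leaving out at least 1 library: Fads2 without 33 h replicate 2 and without expanded replicate 1, Mylip without 33 h replicate 1 and without expanded replicate 2, Btg1 without 33 h replicate 2 and without either expanded replicate, and Pcgf5 and Slfn2 without 33 h replicate 1 and without either expanded replicate. On leaving out 33 h replicate 2, 4 chromatin regulators and 3 quiescence factors fell.

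Other promoter motifs were searched in the same windows, on both strands. The unfolded protein response core TGACGTGG was in 2 of 22 ER genes that rose, and in 1.01% of all genes. The cell cycle homology region TTTGAA was in 50 of 79 mitosis genes (63.3%) against 14.5% of all genes, and the E2F sites TTTGGCGC and TTTCCCGC were in 7 and 9 of 54 DNA replication genes against 1.12% and 2.35%. These are descriptions of the sequences, for lists in which most genes were not called.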
